A study of Mus musculus with 9 samples.

Results

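The regions described here lay under an ATAC-seq peak in infant and young adult lung endothelium and under none in mature adults. They are called lost only by mature adulthood, where lost means that no peak was called and not that the chromatin was shown to be closed. ATAC-seq marks DNA that a transposase can reach. The cells were endothelial cells of mouse lung, isolated by fluorescence-activated sorting. Infants, young adults and mature adults were each represented by 3 libraries, and every library by 1 deposited peak list. The labels name no strain, genotype or treatment, give the ages as these 3 words without a number of days, and leave unstated whether each library had its own animal. The p-values therefore reflect the spread among the libraries alone, which may be technical. The peaks of all 9 lists were joined wherever they overlapped by at least 1 bp, which gave 126907 merged regions. The members were selected on the calls themselves: a peak in all 3 infant and all 3 young adult lists and in none of the 3 mature adult lists. This rule found 764 of the 126907 regions, or 1.64% of the 46493 regions that had a peak in all 6 infant and young adult lists.

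Open chromatin marks promoters, the stretches around the start of a gene where transcription begins, and distal elements such as enhancers that act on genes from a distance. Promoters of broadly used genes are mostly open in every cell type, whereas distal elements and the promoters of developmental regulators differ more between cell types and stages. In the lung, the capillary bed grows and is remodelled after birth as the alveoli form, and the endothelium of the adult lung divides little.

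The members that covered a promoter are shown first, because they tie a lost region to the start of a named gene. The sequences below are RefSeq promoter windows of build GRCm38.p6, the build also called mm10, each running from 250 bp before to 50 bp after a transcription start. They belong to the 5 widest members within 1 kb of a gene end that overlapped such a window, and each window lay wholly inside its member. All are written 5′ to 3′ on the strand of the gene, and capitals mark each CG pair. The Gli3 window is chr13:15463473-15463772 on the plus strand, the Plekhh2 window chr17:84511645-84511944 on the plus strand and the Gpm6b window chrX:166238693-166238992 on the plus strand. The Adamts3 window is chr5:89883285-89883584 and the Gpx8 window chr13:113046339-113046638, both on the minus strand.
Gli3: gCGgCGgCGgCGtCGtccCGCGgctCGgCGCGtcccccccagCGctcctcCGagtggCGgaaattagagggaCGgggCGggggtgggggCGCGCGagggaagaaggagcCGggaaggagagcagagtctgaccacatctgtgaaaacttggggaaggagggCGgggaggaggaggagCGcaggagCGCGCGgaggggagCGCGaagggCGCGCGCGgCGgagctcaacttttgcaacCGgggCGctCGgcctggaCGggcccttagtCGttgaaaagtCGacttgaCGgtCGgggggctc
Plekhh2: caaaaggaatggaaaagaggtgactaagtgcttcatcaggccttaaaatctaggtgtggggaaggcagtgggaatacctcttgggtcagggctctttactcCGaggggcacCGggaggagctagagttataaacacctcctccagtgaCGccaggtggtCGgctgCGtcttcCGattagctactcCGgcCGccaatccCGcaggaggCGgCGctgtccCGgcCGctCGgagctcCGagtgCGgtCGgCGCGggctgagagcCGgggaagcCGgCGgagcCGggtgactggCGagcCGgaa
Gpm6b: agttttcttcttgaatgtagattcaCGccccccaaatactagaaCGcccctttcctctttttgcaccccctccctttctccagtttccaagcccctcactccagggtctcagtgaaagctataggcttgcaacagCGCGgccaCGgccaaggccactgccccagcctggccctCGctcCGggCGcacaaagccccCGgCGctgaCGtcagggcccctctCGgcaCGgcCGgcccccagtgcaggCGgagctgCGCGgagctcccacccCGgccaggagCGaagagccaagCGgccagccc
Adamts3: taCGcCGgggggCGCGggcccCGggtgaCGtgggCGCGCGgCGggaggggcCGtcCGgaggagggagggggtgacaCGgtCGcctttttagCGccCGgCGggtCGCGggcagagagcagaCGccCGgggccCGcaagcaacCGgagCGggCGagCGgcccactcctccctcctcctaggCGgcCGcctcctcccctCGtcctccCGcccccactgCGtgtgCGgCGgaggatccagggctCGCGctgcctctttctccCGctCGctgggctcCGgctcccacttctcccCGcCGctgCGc
Gpx8: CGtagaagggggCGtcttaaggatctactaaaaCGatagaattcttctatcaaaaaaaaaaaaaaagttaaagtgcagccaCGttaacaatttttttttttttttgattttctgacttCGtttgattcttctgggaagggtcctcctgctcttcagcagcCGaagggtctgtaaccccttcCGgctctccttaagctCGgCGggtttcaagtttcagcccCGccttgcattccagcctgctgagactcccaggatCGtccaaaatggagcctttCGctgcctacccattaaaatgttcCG

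CG pairs, the sites of DNA methylation in mammals, are depleted in most of the genome and dense in the promoters of many developmental and broadly used genes. The Adamts3 window held 41 CG pairs, the Gli3 window 39, the Plekhh2 window 25, the Gpm6b window 20 and the Gpx8 window 13. Members overlapped 75 windows of 69 genes in 64 regions. No window was available on chromosome 18, so its 29 members were not searched and 735 were. These 75 windows had a median of 17 CG pairs, against 7 over all 32851 windows and 22 over the 12659 windows under a region with a peak in all 9 lists. Their median GC content was 63.0%, against 52.7% over all windows and 61.7% under regions with a peak in all 9 lists. The 622 windows under regions with a peak in all 3 infant lists and no adult list had a median of 12 CG pairs and 58.3% GC. The promoters under members were thus nearer in base composition to those open at every age than to the average promoter.

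Several short motifs were searched in these windows on both strands, and a match describes letters only. The ETS core CCGGAA, bound by a family that includes the endothelial factor ERG, was in 10 of the 75 windows (13.3%), among them Plekhh2 and Gpx8 above, against 14.9% of all windows and 29.3% of those under regions with a peak in all 9 lists. The KLF and SP box GGGCGG was in 44 (58.7%), against 35.7% and 66.5%, and occurred in the Gli3 and Adamts3 windows. The cyclic AMP response element TGACGTCA was in 4 (5.33%), one of them Gpm6b, against 1.79% and 3.37%. The others were overlapping windows at Gm11608 and Zdbf2 under the same member, so they are not separate matches. The AP-1 site TGANTCA was in 3 (4.00%), against 7.81% and 4.42%. The GATA motif AGATAA was in 7 of the 75 windows (9.33%), against 11.2% of all windows and 5.79% of those under regions with a peak in all 9 lists. Several of the 7 were overlapping windows at CJ186046Rik and Six2 under the same member. The SOX motif AACAAT was in 7 (9.33%), against 10.7% and 5.63%, and the TATA box TATAAA in 5 (6.67%), against 13.6% and 6.26%. The TEAD motif GGAATG was in 8 (10.7%), against 14.7% and 11.6%, the RBPJ motif GTGGGAA in 2 (2.67%), against 6.38% and 5.89%, and the forkhead motif TGTTTAC in 0, against 3.65% and 2.56%. The TEAD letters can overlap those of the ETS and RBPJ motifs, which end in the bases it begins with. No sequence outside the promoter windows was used here.

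The 9 lists held between 59793 and 94646 distinct peaks, from 88856 to 94646 in infants, 67550 to 68366 in young adults and 59793 to 64208 in mature adults. The lists give positions without heights or read numbers, so sequencing depth is unknown, and a shorter list can lack a peak that a deeper library would show. Each of the 14 endothelial marker genes had a peak at every age, with a summed 267 to 287 peaks in infant, 231 to 261 in young adult and 215 to 255 in mature adult lists. Marker genes of fibroblasts and mural cells held 98 to 105, 41 to 43 and 38 to 40 peaks, those of lymphatic endothelium 74 to 83, 39 to 42 and 35 to 42, those of epithelium 37 to 47, 20 to 29 and 20 to 22, and those of immune cells 12 to 13, 8 to 15 and 10 to 11. Of the defining markers, Lum, Sftpc, Lyz2, Itgam, Nkg7, Pdpn and Ccl21a had no peak in any of the 9 lists. The number of peaks at endothelial, fibroblast, lymphatic and epithelial markers was thus lower in both adult ages than in infants. As a share of each library's peaks, the fibroblast markers held 0.109 to 0.111% in infants, 0.0604 to 0.0637% in young adults and 0.0602 to 0.0669% in mature adults. The epithelial markers held 0.0411 to 0.0497%, 0.0296 to 0.0427% and 0.0327 to 0.0349%, so that infants and young adults overlapped. The lymphatic markers held 0.0822 to 0.0889%, 0.0570 to 0.0619% and 0.0555 to 0.0702%. The share of the endothelial markers was higher in both adult ages, with 0.300 to 0.319%, 0.342 to 0.382% and 0.360 to 0.404%. The part of other cell types in the results below was not tested. In width, the third young adult library and the first mature adult library were the lowest of their age, and the number of members is given below without each.

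Fewer regions met this rule than were called in infants only. Of the regions with all-or-none calls at each age, 41144 had a peak in all 9 lists, 12315 in the 3 infant lists only and 764 in the infant and young adult lists only. In the opposite order, 871 regions had a peak in all 6 adult lists and in no infant list. Regions in all infant and all mature adult lists that skipped the young adults numbered 50, those in young adults only 156 and those in mature adults only 147. These counts were used by the rule and carry no test. Those recounted with lists of equal length differed, as given at the end. The infant lists were the longest, and the count in infants only was not among those recounted.

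**Figure D1:**
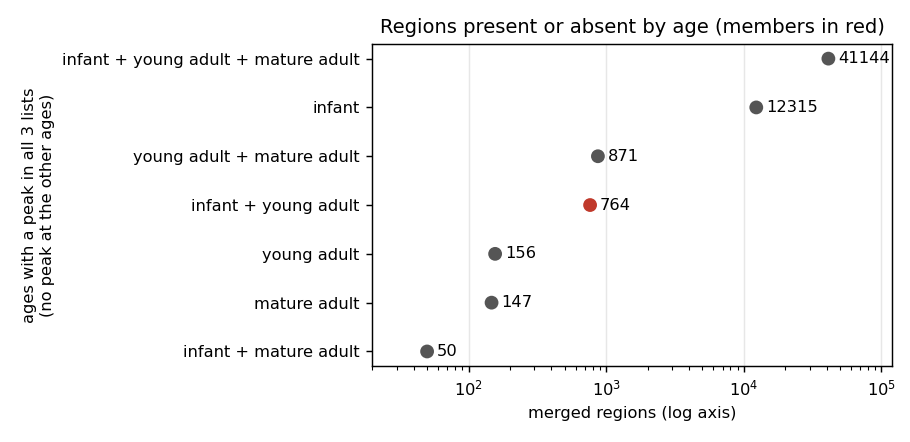
Number of merged regions (log axis) by the ages at which all 3 lists had a peak, with no peak at the other ages. The 764 members, in red, lie between the 871 regions gained by both adult ages and the 156 seen in young adults only, far below the 12315 seen in infants only.

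The edge of the rule was close on both sides. Of the 46493 regions with a peak in all 6 earlier lists, 1479 (3.18%) had a peak in exactly 1 mature adult list, 3106 (6.68%) in 2 and 41144 (88.5%) in all 3. The 1479 regions just outside were held by mature adult replicate 2 in 751 cases (50.8%), by replicate 3 in 492 (33.3%) and by replicate 1, the shortest list, in 236 (16.0%). A further 2110 regions had a peak in 5 of the 6 earlier lists and in no mature adult list, and 1362 of these (64.5%) lacked only young adult replicate 3. Without young adult replicate 3 the rule found 2126 regions, without mature adult replicate 1 it found 1000, without mature adult replicate 2 it found 1515 and without mature adult replicate 3 it found 1256.

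Before they were lost, the members were narrower than the regions open at every age, in infants and more so in young adults. Their median covered length, the bases of a region under peaks of a library, was 504, 463.5 and 433 bp in the infant libraries and 263, 273.5 and 232 bp in the young adult libraries. The 2 ages did not overlap. In sorted bulk material, fewer cells with an open region and less opening per cell cannot be told apart. Regions with a peak in all 9 lists measured 777.5, 745 and 735 bp in infants, 676, 684 and 607 bp in young adults and 575, 648 and 644 bp in mature adults. The members thus held 467 ± 35.6 bp (SD, n = 3) in infants and 256 ± 21.6 bp (SD, n = 3) in young adults, a ratio of 0.549, where the regions with a peak in all 9 lists went from 752.5 ± 22.2 to 656 ± 42.3 bp (SD, n = 3), a ratio of 0.871. Summed over the members, the covered length was 411 ± 27.8 kb in infants and 229 ± 21.5 kb in young adults (SD, n = 3).

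Member width was also scaled within each library by the median of the regions with a peak in all 9 lists, not by the width of all its peaks. Scaled in this way, it was 0.620 ± 0.0296 in infants and 0.390 ± 0.00890 in young adults (SD, n = 3). The difference of -0.229 gave an exact two-sided permutation p = 0.1, the smallest that 3 against 3 libraries allow. It ran from -0.245 to -0.215 when any 1 library was left out. The share of members under 300 bp was 23.4 ± 5.18% in infants and 63.2 ± 6.19% in young adults (SD, n = 3). In regions with a peak in all 9 lists this share was 7.09 ± 1.58% and 10.6 ± 2.31% (SD, n = 3). Ranked by width within their library, the members stood at a median percentile of 53.2, 49.5 and 47.2 in infants and 23.3, 24.7 and 20.8 in young adults. In infants the members were thus near the middle of the ranking and in young adults at or below a percentile of 24.7.

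**Figure D2:**
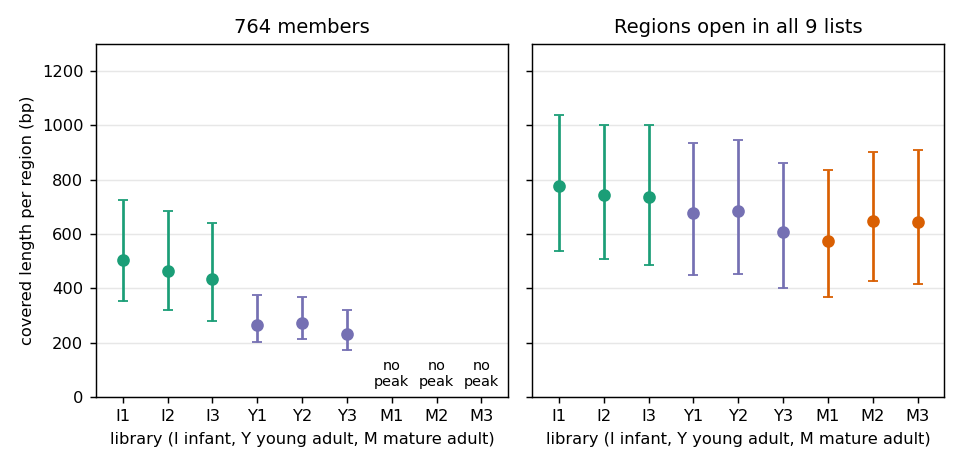
Median covered length per region in bp (points) with the lower and upper quartile over regions (bars), by library, for the 764 members and for the regions with a peak in all 9 lists. The member medians lie between 433 and 504 bp in infants and between 232 and 273.5 bp in young adults, while the other regions stay between 575 and 777.5 bp throughout.

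The width in young adults followed the number of mature adult lists that still called the region, and the width in infants did so less. The rule used the mature adult calls, and width comes from the same kind of calls, so this is a description. Whether narrow regions lay near the calling threshold was not tested. With 0, 1, 2 and 3 mature adult lists, the mean of the 3 young adult medians was 256, 269, 302 and 656 bp, and that of the 3 infant medians 467, 454, 458 and 752.5 bp. Regions with a peak in 1 or 2 mature adult lists were thus as wide as the members in infants and only slightly wider in young adults. Among regions in all 3 infant lists and no mature adult list, the infant width itself was 342 bp where no young adult list had a peak, 385 bp where 1 had, 422 bp where 2 had and 467 bp for the members. When the 46493 regions were split into 5 equal classes by young adult width, members made up 6.51% of the narrowest class (605 regions), then 1.35% (126), 0.226% (21), 0.108% (10) and 0.0215% of the widest (2). By infant width the shares ran less steeply, from 3.58% (333) over 2.23% (207), 1.19% (111) and 0.688% (64) to 0.527% (49).

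**Figure D3:**
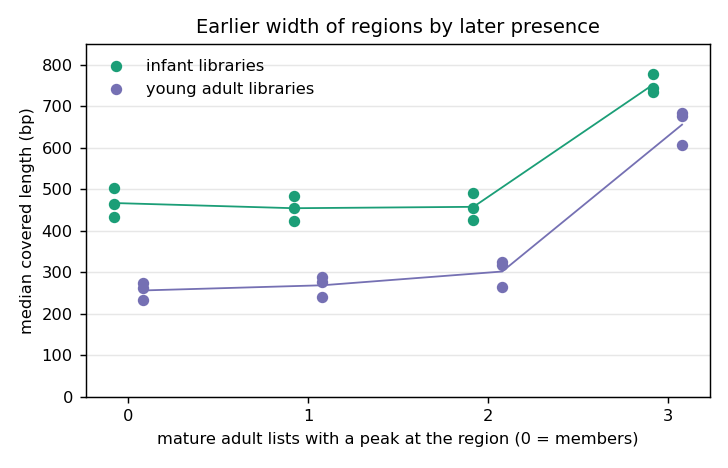
Median covered length in bp in each infant and young adult library (points; lines join the means of 3 libraries) by the number of mature adult lists with a peak at the region, where 0 marks the members. Young adult means are 256, 269, 302 and 656 bp, and infant means are 467, 454, 458 and 752.5 bp.

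Region by region, the change in width between infants and young adults was tested with limma on log2 covered length over all 46493 regions. The rule used the presence of peaks in these lists and not this difference, although width and presence come from the same calls. Of the 764 members, 127 (16.6%) were narrower in young adults at a Benjamini-Hochberg adjusted p under 0.05, and 1 (0.131%) was wider. Over all regions tested, 3.21% were called narrower and 2.02% wider. The median log2 change was -0.54 for members, with quartiles of -0.97 and -0.19, and 0.04 over all regions, and 658 members (86.1%) had a negative change. In bp without centring, every infant value lay above every young adult value in 474 members (62.0%), against 34.8% of all regions. Statements below on overlap between the ages at single members also use bp without centring. By their medians, infant libraries were wider at the regions with a peak in all 9 lists as well. Among regions with a peak in 1, 2 and 3 mature adult lists, 12.6%, 8.60% and 2.22% were called narrower, with median log2 changes of -0.41, -0.29 and 0.07. Each library was centred on the median of the regions with a peak in all 9 lists. A change near 0 in those regions, and over all regions, thus largely follows from the centring. Without centring, the median log2 change was -0.74 for members and -0.16 over all regions. In that setting 203 members were called narrower, against 8.16% of all regions.

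The number of calls depended on single infant libraries. It was 0 without infant replicate 1, when no region of any kind was called, 8 (background 0.148%) without infant replicate 2 and 35 (background 0.710%) without infant replicate 3, and between 108 and 140 without any 1 young adult library. The median change of the members stayed between -0.59 and -0.52 in these fits. At an unadjusted p under 0.05, 344 members (45.0%) were narrower and 7 (0.916%) wider, against 12.0% and 16.3% of all regions.

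**Figure D4:**
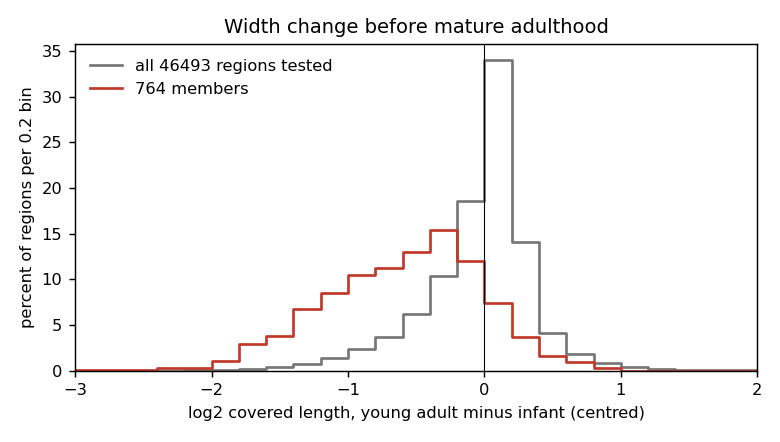
Percent of regions per bin of log2 covered length in young adults minus infants, for the 764 members and for all 46493 regions tested. The members are spread to the left of 0 with a median of -0.54, whereas all regions peak just above 0 with a median of 0.04.

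The members narrowed most included regions at Zfpm2, Kcnj5 and Myo1h. Zfpm2, which encodes the GATA cofactor FOG2, held a member at chr15:40654366-40656364, inside the gene and 323 bp from one of its ends. It covered 1954, 1897 and 1781 bp in infants and 216, 321 and 176 bp in young adults, a log2 change of -2.83 ± 0.18 (SE; limma adjusted p = 0.00565). No base of it was shared by peaks of all 6 libraries, and the nearest mature adult peak was 869 bp away. Inside Kcnj5, the gene of an inwardly rectifying potassium channel, the member at chr9:32318795-32320519 covered 1550, 1548 and 1544 bp in infants and 399, 150 and 150 bp in young adults (log2 change -2.70 ± 0.36 SE; limma adjusted p = 0.0169). Here too, no base was shared by peaks of all 6 libraries. Inside Myo1h, an unconventional myosin gene, the member at chr5:114308909-114309969 covered 1040, 1058 and 801 bp and then 150, 161 and 162 bp (log2 change -2.40 ± 0.16 SE; limma adjusted p = 0.00565). In these 3 members all infant values were above all young adult values, and the young adult values lay between 150 bp, the narrowest peak in any list, and 399 bp. The only member called wider lay inside Rnf220, a ubiquitin ligase gene, with 158, 150 and 150 bp in infants and 226, 183 and 196 bp in young adults (log2 change 0.60; limma adjusted p = 0.0473).

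A few members were wide in both earlier ages. Only 36 members (4.71%) exceeded the median width percentile of regions with a peak in all 9 lists, and by the young adult percentile alone only 14 (1.83%) did. The widest was inside Auts2, a gene of neural development whose protein acts with Polycomb complexes, at chr5:131537087-131539062. It covered 1886, 1878 and 1899 bp in infants and 1374, 1684 and 1815 bp in young adults. The young adult values lay below the infant ones, but the log2 change of -0.03 was not called (limma adjusted p = 0.913), and all 6 libraries shared 886 bp, the longest shared stretch of any member. The nearest mature adult peak was 20698 bp away. Auts2 as a whole kept 17, 15 and 15 peaks in the mature adult lists, after 16, 16 and 24 in young adults and 44, 39 and 42 in infants. A member inside Camk4, a calcium and calmodulin-dependent kinase gene, covered 1225, 1281 and 1212 bp in infants and 1149, 985 and 438 bp in young adults (limma adjusted p = 0.359). One assigned to the predicted gene Gm40514 covered 1197, 1127 and 1187 bp and then 961, 898 and 562 bp (limma adjusted p = 0.182). In both, all infant values were above all young adult values.

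Gli3, a transcription factor of the Hedgehog pathway, held a member across its start at chr13:15462754-15464725. It covered 1971, 1564 and 1502 bp in infants and 892, 1013 and 674 bp in young adults, with no overlap (log2 change -0.78 ± 0.13 SE; limma adjusted p = 0.0276). The gene had 16 peaks in each infant list, 3, 4 and 9 in young adults and 10, 1 and 1 in mature adults. The rule excludes mature adult peaks at the member itself. By these counts, young adult replicate 3 and mature adult replicate 1 were the high libraries of their age at Gli3. The same libraries were high at Tenm2, a teneurin adhesion gene, with 17, 16 and 15 peaks in infants, 4, 5 and 19 in young adults and 16, 6 and 4 in mature adults. Its member at chr11:37235809-37237076, inside the gene and 611 bp from an end, covered 1072, 1235 and 1188 bp in infants and 843, 1083 and 548 bp in young adults, which overlap (limma adjusted p = 0.290).

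Bmp2, a secreted ligand of the bone morphogenetic protein pathway, held a member at chr2:133551908-133553519, inside the gene and 554 bp from one of its ends. It covered 1561, 1520 and 1377 bp in infants and 1152, 1258 and 479 bp in young adults (limma adjusted p = 0.285), the lowest value again in young adult replicate 3. The gene had 8, 7 and 8 peaks in infants, 7, 5 and 5 in young adults and 4, 2 and 1 in mature adults, and the nearest mature adult peak was 1486 bp from the member.

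A pair of extracellular proteases of the ADAMTS family lost regions beside a gene end. ADAMTS5 cleaves the proteoglycan aggrecan, and ADAMTS3 processes procollagen and the lymphatic growth factor VEGF-C. The Adamts5 member at chr16:85900639-85901901, just outside the gene's end by its centre, covered 1248, 1242 and 1123 bp in infants and 813, 483 and 1001 bp in young adults. The Adamts3 member at chr5:89881932-89883991 covered 2024, 1687 and 1666 bp and then 568, 1190 and 213 bp. In both members the infant values were above all young adult values, and neither change was called (limma adjusted p = 0.275 and 0.124). In the mature adult lists 1, 1 and 0 peaks remained at Adamts5 and 2, 1 and 0 at Adamts3.

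Further members lay at the starts of Plekhh2, Gpm6b, Gpx8, Kcna3 and Greb1. Kcna3, the gene of the voltage-gated potassium channel Kv1.3, had a member at chr3:107035633-107037064 with 1397, 1414 and 1431 bp in infants and 605, 617 and 342 bp in young adults (log2 change -1.29 ± 0.19 SE; limma adjusted p = 0.0196). At Plekhh2, the member at chr17:84511330-84512964 covered 1376, 1313 and 1634 bp and then 1177, 1042 and 551 bp (limma adjusted p = 0.223). At Gpm6b, a membrane glycoprotein of the proteolipid family, the member at chrX:166238606-166239902 covered 1183, 1185 and 1129 bp and then 1124, 1042 and 221 bp (limma adjusted p = 0.452). At Kcna3 and Plekhh2 the ages did not overlap, and at Gpm6b the young adult values of 1124 and 1042 bp were close to the infant ones, with young adult replicate 3 far below. Gpx8, a glutathione peroxidase of the endoplasmic reticulum, held a member at chr13:113045555-113046924 that covered 1087, 965 and 1357 bp in infants and 679, 658 and 438 bp in young adults (limma adjusted p = 0.0636). The Greb1 member, at the start of an oestrogen-responsive gene, covered 1222, 1003 and 1008 bp and then 615, 823 and 212 bp (limma adjusted p = 0.194).

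**Figure D5:**
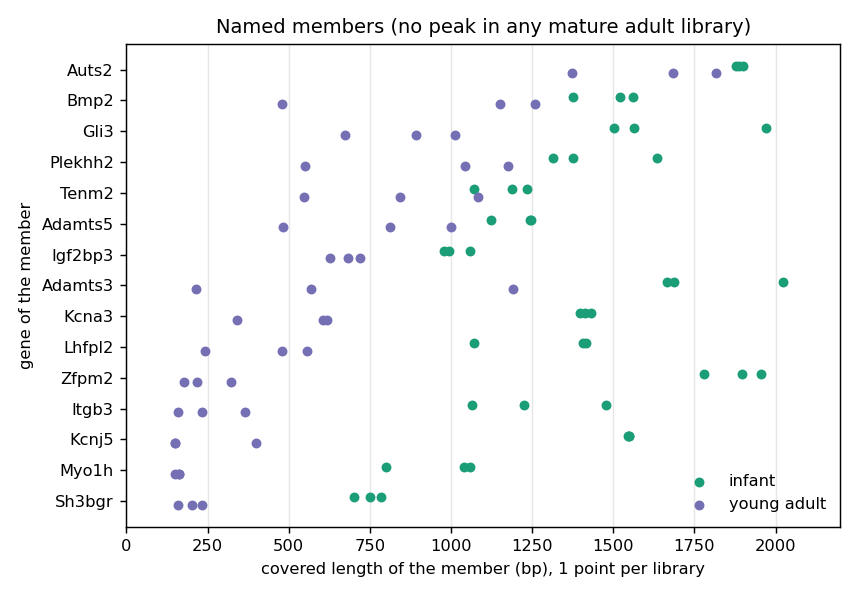
Covered length in bp of 15 named members in the 3 infant and 3 young adult libraries, 1 point per library, ordered by width rank; none had a mature adult peak. Auts2 stays between 1374 and 1899 bp, Zfpm2 falls from 1781 or more to 321 or less, and one young adult point at Bmp2 lies at 479 bp.

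Despite these examples, most members were far from genes' ends. Only 74 members (9.69%, exact binomial 95% interval 7.68 to 12.0%, which covers counting error only) had their centre within 1 kb of either end of a protein-coding gene, against 25.1% of the regions with a peak in all 9 lists, 23.2% of those in all 6 earlier lists and 7.16% of those in the infant lists only. Put as a share, 0.687% of the 10779 regions near a gene end in all 6 earlier lists were members, and 1.93% of the 35714 farther away. Inside a gene lay 409 members (53.5%), against 61.7% of the regions with a peak in all 9 lists. A further 259 were assigned to a gene with an end within 100 kb, and 96 (12.6%) to none, against 5.90% of regions with a peak in all 9 lists. The gene table gives no exons, introns or UTRs, so the only annotation given here is whether a region lies within a gene. The median distance to a gene end was 24.0 kb for members and 11.2 kb for regions with a peak in all 9 lists. Over all 126907 merged regions, 12.2% lay within 1 kb of a gene end, 57.0% inside a gene, and 11.9% were assigned to none. Their median distance to a gene end was 21911 bp. In these 4 values the members were closer to all merged regions than to the regions with a peak in all 9 lists.

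Members near a gene end were wider than the rest. The 74 near ones had a median of 711 bp in infants and 320 bp in young adults, and the other 690 had 459 and 265 bp. The test called 14 of the 74 (18.9%) and 113 of the 690 (16.4%) narrower, against 3.21% of all regions, and the median log2 change was -0.74 and -0.52. The difference between these groups of members was not tested.

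The members were scattered over the genome. They totalled 0.499 Mb, the median gap between neighbours on a chromosome was 1.65 Mb, and 63 of 744 gaps were under 100 kb. By chromosome, the members made up between 1.21% (chromosome 17) and 2.12% (chromosome 9) of the regions in all 6 earlier lists. In 648 members each of the 6 lists had exactly 1 peak. The stretch shared by all 6 lists had a median of 157 bp, and 32 members shared no base. Among these were the members at Zfpm2, Kcnj5 and Itgb3, that at chr13:94104433-94105542 in Lhfpl2 and the Cmip member called narrower. A smaller covered length there need not be the narrowing of a single peak. Mature adult peaks were often not far away: the nearest was at a median of 6909 bp, within 1 kb for 106 members (13.9%) and within 10 kb for 58.8%, against 9.97% and 49.3% for the regions seen in infants only. It was over 100 kb away for 18 members.

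The 668 members assigned to a gene belonged to 620 genes, of which 578 had 1, 37 had 2, 4 had 3 and 1 had 4. The gene with 4 was Lhfpl2, a tetraspan membrane protein of the LHFPL family. Its widest member, at chr13:94090222-94091684, covered 1070, 1415 and 1406 bp in infants and 556, 478 and 242 bp in young adults (log2 change -1.48; limma adjusted p = 0.0387). Another at chr13:94104433-94105542 covered 1089, 1092 and 1032 bp and then 408, 365 and 388 bp (log2 change -1.27; limma adjusted p = 0.00654). The third, at chr13:94173116-94174190, was also called narrower (log2 change -1.27; limma adjusted p = 0.0115), and the fourth was not (log2 change -0.56; limma adjusted p = 0.112). Over the whole gene, peaks numbered 33, 28 and 27 in infants, 21, 20 and 14 in young adults and 7, 9 and 11 in mature adults, without overlap between the ages. By the rule, the 4 members add peaks to every earlier list and none to the mature adult lists. The gene was named for these members, so its counts are a description.

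Of the genes with 3 members, Slc24a3, a sodium, potassium and calcium exchanger, had 1 called narrower, with 901, 998 and 985 bp in infants and 355, 388 and 354 bp in young adults (log2 change -1.19; limma adjusted p = 0.00830). Cmip, an adaptor protein gene, also had 1 called narrower of 3, with 493, 494 and 733 bp and then 200, 151 and 150 bp (log2 change -1.57; limma adjusted p = 0.0189). None of the 3 members at Nav3, a neuron navigator gene, was called (limma adjusted p between 0.0536 and 0.253). Zfp516, a zinc finger gene, had the remaining 3, none called (limma adjusted p between 0.0516 and 0.630). They lay outside the gene, between 54698 and 96066 bp from its end.

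For 46 of the 620 genes (7.42%), no mature adult list had any peak assigned. All 620 were chosen through a region that the mature adult lists lack, which favours such genes. No share over other genes is given here, so the count is a description. Plekhh2 went from 10, 6 and 10 peaks in infants to 2, 4 and 3 in young adults and 0 in mature adults. Nr5a1, which encodes the steroidogenic transcription factor SF-1, had 5, 4 and 3, then 3, 1 and 1, then 0, and its member covered 1067, 873 and 996 bp in infants and 465, 293 and 178 bp in young adults (log2 change -1.55; limma adjusted p = 0.0395). Sh3bgr, an SH3-binding protein gene, had 3 peaks in each infant list, 2 in each young adult list and 0 later. Its wider member, 62 bp outside the gene's end, covered 785, 751 and 702 bp and then 232, 158 and 203 bp (log2 change -1.73; limma adjusted p = 0.0109). At Cd200r3, an immune receptor gene, 4, 6 and 3 peaks were followed by 2, 1 and 2 and then by 0, and its member was called narrower (log2 change -0.87; limma adjusted p = 0.0197). Mpi, the gene of mannose phosphate isomerase, differed in direction: its member covered 340, 192 and 170 bp in infants and 338, 352 and 292 bp in young adults, which overlap (log2 change 0.75; limma adjusted p = 0.124). Magee2, Napsa, Col26a1 and Mpped1 also had 1 or more peaks in every young adult list and 0 in mature adults, and their members were not called.

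Members were also counted at listed genes, which covered endothelial pathways and markers of other cell types. Of 389 genes in 21 lists, 388 were found in the gene table, and 26 of them had 27 members. These were 1.03% of the 2617 regions of list genes that had a peak in all 6 earlier lists, against 1.64% of all such regions. Counted by gene, 7.43% of the 350 list genes with such a region had a member, against 4.50% of 13780 genes. Of the 27, the test called 5 narrower (18.5%) and 0 wider, with a median log2 change of -0.50, near the 16.6% and -0.54 of all members (3.21% narrower and 2.02% wider over all regions). List by list the numbers were small, and none carries a test. A member is counted at its assigned gene, whose end can be up to 100 kb away.

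Integrins, the receptors that anchor cells to matrix, had 4 members among 115 regions in all 6 earlier lists (3.48%), at Itga8, Itga9, Itgav and Itgb3. Only that inside Itgb3, whose product is the beta 3 chain, was called narrower, with 1225, 1479 and 1065 bp in infants and 234, 366 and 160 bp in young adults (log2 change -2.18 ± 0.27 SE; limma adjusted p = 0.0143). The gene had 7, 9 and 9 peaks in infants, 7, 7 and 5 in young adults and 2, 3 and 2 in mature adults. Matrix and basement membrane genes had 3 members among 155 (1.94%), at Col8a1, Fn1 and Sparc. The one assigned to Col8a1, a short-chain collagen gene, lay outside the gene and 99244 bp from its end. It covered 451, 422 and 516 bp in infants and 150 bp in each young adult library (log2 change -1.42 ± 0.14 SE; limma adjusted p = 0.0104). The member assigned to Fn1, the fibronectin gene, lay outside the gene and 30570 bp from its end. It covered 750, 612 and 658 bp and then 569, 557 and 511 bp, and was not called (limma adjusted p = 0.529).

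Cell cycle and growth genes had 3 members among 137 (2.19%). One was inside Igf2bp3, a fetal RNA-binding protein gene, with 1059, 978 and 993 bp in infants and 683, 719 and 628 bp in young adults (log2 change -0.38 ± 0.06 SE; limma adjusted p = 0.0261). Of the pair assigned to Mki67, whose product Ki-67 marks dividing cells, the one outside the gene was called narrower, with 408, 323 and 298 bp and then 173, 161 and 150 bp (log2 change -0.88; limma adjusted p = 0.0265). Genes of junctions and flow sensing had 4 among 302 (1.32%), at Magi1, Ptprb, Ptprm and S1pr3. The member inside Magi1, a junctional scaffold gene, covered 551, 508 and 558 bp and then 192, 184 and 228 bp (log2 change -1.23 ± 0.17 SE; limma adjusted p = 0.0179). That of S1pr3, a receptor for sphingosine 1-phosphate, lay at the start of the gene and was not called, with 598, 691 and 469 bp in infants and 305, 490 and 305 bp in young adults.

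Signalling lists held 1 or 2 members each. TGF-beta and BMP genes had 2 among 177 (1.13%), at Bmp2 and at Smad6, an inhibitor of BMP signalling. Guidance genes had 2 among 273 (0.733%), at the ligand gene Slit2 and the receptor gene Robo2. The Robo2 member, 197 bp from one of the gene's starts, covered 955, 616 and 730 bp in infants and 291, 441 and 255 bp in young adults, which do not overlap but were not called (log2 change -1.04; limma adjusted p = 0.0534). Notch genes had 1 among 141, at the ligand gene Jag2, Wnt genes 1 among 125, at the co-receptor gene Lrp5, and VEGF and tip cell genes 1 among 182, at the VEGF receptor gene Flt1. The Flt1 member covered 448, 390 and 344 bp and then 167, 437 and 333 bp, and a mature adult peak lay 365 bp away. Flt1 was also the only one of the 14 endothelial markers with a member, 1 of 188 regions (0.532%).

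Transcription factor genes of endothelium had 3 members among 475 (0.632%), at Foxo1, Mecom and Mef2c, none called. Capillary genes had 1 among 124, at the phosphatase gene Ptprb, arterial and venous genes 1 among 66, at the chemokine gene Cxcl12, and chromatin enzymes 1 among 97, at the demethylase gene Kdm1a. No member was assigned to AP-1 and immediate early genes (of 87 regions), lipid genes (of 105) or MHC and interferon genes (of 80). Among markers of other cells, fibroblast and mural genes had 1 of 28, lymphatic genes 1 of 29, epithelial genes 0 of 16 and immune genes 0 of 7. The fibroblast one was assigned to Tbx5, a transcription factor of lung mesenchyme, and lay outside the gene, 55302 bp from its end. The peaks of Tbx5 numbered 13, 13 and 11 in infants, 1, 1 and 2 in young adults and 0 in mature adults.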

How the data were processed

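Per the labels, sorted lung endothelial cells were profiled by ATAC-seq in 3 libraries per age. Per the file headers, each list the authors deposited gives the chromosome, start and end of peaks, positions without height, score or count. The submitters' processing notes name cutadapt, Bowtie2, Picard and build mm10. How peaks were called, at what threshold and whether reads were shifted is not given in the sources used here. Repeated rows of an interval (31.0% to 38.9% of intervals) were counted once. Whether starts count from 0 or 1 is not stated, so positions may be off by 1 bp.

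Covered bases per region were taken as log2, centred per library on the median of the regions with a peak in all 9 lists, and tested between infants and young adults with limma 3.58.1 in R 4.3.3 (mean-variance trend), adjusted by the Benjamini-Hochberg method over all 46493 regions. Mature adult widths entered no test, since members have none. Genes and promoter windows are from RefSeq GRCm38.p6 (21887 protein-coding genes; 27025 genes with a window). A region belongs to the gene that holds its centre, otherwise to the nearest end within 100 kb. Named are the 10 widest members, the 10 widest within 1 kb of a gene end, genes with at least 3 members, members of listed genes, up to 10 genes without mature adult peaks, and the most changed. A few of these are given by count only. Members and lists were chosen with earlier results of these data known. Other settings tried were the number of peaks, the overlap, the width filter, the scaling, the replicate block and leaving out libraries. Python 3.11.15 with pandas 2.3.3, numpy 2.4.6, scipy 1.17.1 and matplotlib 3.10.9 was used.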

Additional observations from a re-analysis of the deposited data

How the results depend on the processing

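The count of 764 members rested on the calling and on single libraries. It was 350 when every library was limited to the same number of its widest peaks, 487 with peaks of at least 300 bp, 2511 without both low libraries (young adult replicate 3, mature adult replicate 1), and between 777 and 2126 when 1 library was left out. It was 658 when mature adult peaks within 1 kb counted, 743 on autosomes and 769 with peaks joined only at 100 bp of overlap, a setting chosen after seeing the data because the planned 100 bp rule left 764. The share near a gene end was 12.6% with equal numbers of peaks and 12.8% without both libraries; the median width percentile ran from 36.7 to 38.5.

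With the replicate block, 0 members were narrower and 0 wider, as were 0 of all regions; same-numbered libraries deviated together with correlations of 0.0605, 0.0355 and 0.132, so the numbers were not taken to pair them. Without centring 203 members were narrower (background 8.16%) and 0 wider, and with regions of at least 300 bp 123 were narrower (background 3.54%) and 0 wider (background 2.12%). Leaving out 1 library gave 0 to 140 narrower members (background 0 to 3.94%) and 0 to 2 wider (background 0 to 1.59%). The median change of members was negative in all these settings, from -0.75 to -0.49. The call at Rnf220 was lost in 7 of 10 settings, that at Kcnj5 in 4 of 11, and those at Zfpm2 and Myo1h in 2 of 11 each, with log2 changes from -3.03 to -2.69 and from -2.61 to -2.33. Without read numbers a missing peak cannot be told apart from a weak one.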

Other observations

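Over all 620 genes with a member, assigned peaks numbered 8502, 8043 and 7992 in the infant lists, 5825, 5908 and 5591 in the young adult lists and 4279, 4602 and 4606 in the mature adult lists, with medians of 9, 6 and 4 peaks per gene in every library of these ages. The genes were chosen through a region that the mature adult lists lack, so this is a description. When each library was limited to its 59793 widest peaks, 350 regions met the rule, and they overlapped 283 of the 764 members. Under this limit 39 regions were in the infant and mature adult lists and not in the young adult ones. The adult lists alone held 2964, young adults only 189 and mature adults only 339. Without the limit these numbered 50, 871, 156 and 147. One member, at chr5:41890722-41891345, overlapped the hairpin of the microRNA Mir6414.

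The widest members outside any assigned gene were at chr11:26209812-26211212, 64 bp from the start of the noncoding gene 5730522E02Rik, with 1293, 1265 and 1328 bp in infants and 987, 1181 and 913 bp in young adults, and at chr5:4496142-4497383, with 1044, 1030 and 1241 bp and then 792, 742 and 877 bp. In both, the infant values were above all young adult values, and neither change was called (limma adjusted p = 0.275 and 0.258).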
